A study of Mus musculus with 3 samples.

Results

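The Slc30a genes encode the ZnT family of membrane transporters, most of which move metal ions out of the cytosol, either across the plasma membrane or into organelles. The 7 genes described here, Slc30a1, Slc30a4, Slc30a5, Slc30a6, Slc30a7, Slc30a9 and Slc30a10, were taken by their symbols from 49492 entries of the deposited count tables, which hold 10 Slc30a genes in all. The RNA came from livers of CD-1 mice, an outbred strain, and was sequenced as 3 libraries. The control library is from mice given phosphate-buffered saline (PBS). The 8-week and 12-week libraries are from mice dosed orally for that time with ZnO nanoparticles (zinc oxide, dispersed by sonication), 25 mg/kg b.w. each day. Sex, age, the number of animals in a library and the hour of collection are not stated in the labels. Each group is 1 library with 13263211 to 14258770 counts, so the spread between animals is unknown and differences were not tested; intervals cover counting error only.

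Cells keep free zinc in the cytosol low by exporting it, by storing it in vesicles and by binding it to metallothioneins. When zinc rises, the transcription factor MTF1 binds metal response elements and activates metallothionein genes and Slc30a1, the exporter of the plasma membrane. Slc30a5, Slc30a6 and Slc30a7 carry zinc into the early secretory pathway, where enzymes such as alkaline phosphatase receive it. Slc30a10 is known mainly as an exporter of manganese, which liver cells use to pass manganese into bile.

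Of the 7 genes, Slc30a10 alone was at least 2-fold different in any pair of libraries. It stood at 73.2 CPM (counts scaled to library size, with TMM factors) in the control, 20.3 after 8 weeks and 44.2 after 12 weeks. The other 6 genes stayed within log2 ratios of -0.39 and 0.40 of the control at both times. Slc30a5, Slc30a7 and Slc30a9 were higher than the control at both times by more than counting error, all by less than 1.5-fold. At 8 weeks 3744, 3864 and 3544 of 14585 genes, in that order, had a higher ratio, so shifts of this size were common. How many of all genes passed counting error was not counted, and both times share the same control library. Slc30a1, a reported MTF1 target, had 56.0, 54.6 and 60.0 CPM in the control, 8-week and 12-week libraries, while the metallothionein Mt1 had 23.9, 58.8 and 305 CPM.

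A gene was called when CPM + 1 differed at least 2-fold, which is a cutoff on size with no test behind it. At 8 weeks 1 of the 7 genes was called lower and 0 higher than the control, where 6.25% of the 14585 genes with at least 1 CPM in 1 library were called, 4.15% higher and 2.1% lower. At 12 weeks 0 of 7 were called against the control, where 4.46% of genes were (3.11% higher and 1.34% lower). Between 12 and 8 weeks 1 of 7 was called higher, where 2.51% of genes were called, 1.28% higher and 1.23% lower. That call was lost with 5 CPM added in place of 1 (log2 ratio of Slc30a10 0.96, 0 members called), and its counting interval, 0.92 to 1.33, reaches below 2-fold. The gene is Slc30a10 in both cases. At 1.5-fold, Slc30a10 was also the 1 member called in each of the 3 comparisons, where 18.6%, 15.5% and 10.1% of genes were. A share of 7 that rests on a single gene says nothing of the family. The median log2 ratio of the 7 was -0.03 (8 weeks), 0.10 (12 weeks) and 0.15 (12 against 8 weeks), beside -0.02, -0.01 and -0.00 over all 14585 genes. All 7 passed the filter of 1 CPM, and each passed it in every library.

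**Figure D1:**
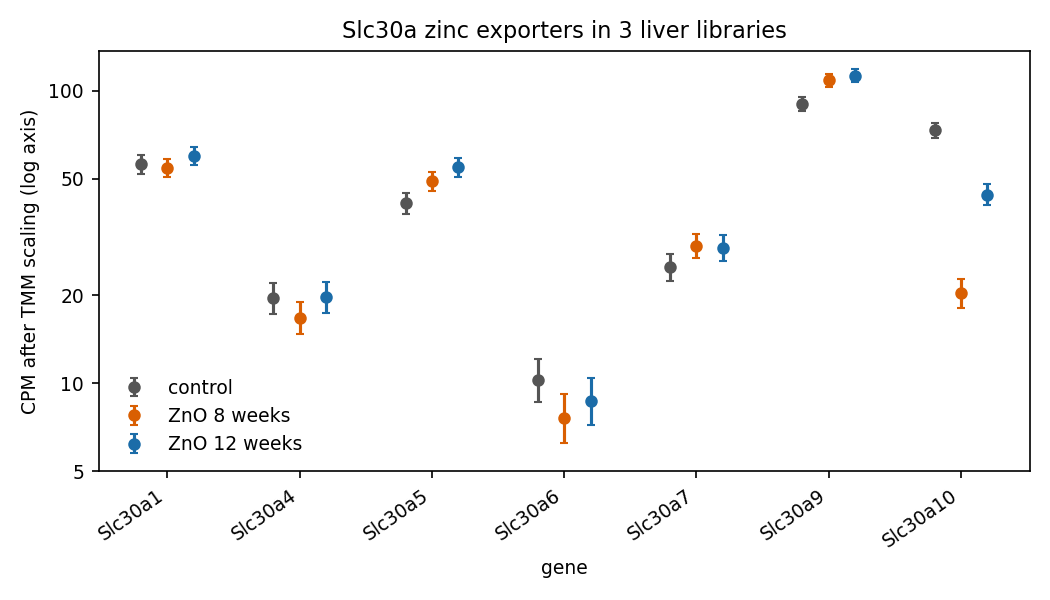
CPM after TMM scaling (log axis) of the 7 Slc30a genes in the control, 8-week and 12-week libraries; points are single libraries and bars are exact Poisson 95% intervals, which cover counting error only. Slc30a10 spreads from 20.3 to 73.2 CPM, while each other gene keeps its 3 points close together.

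**Figure D2:**
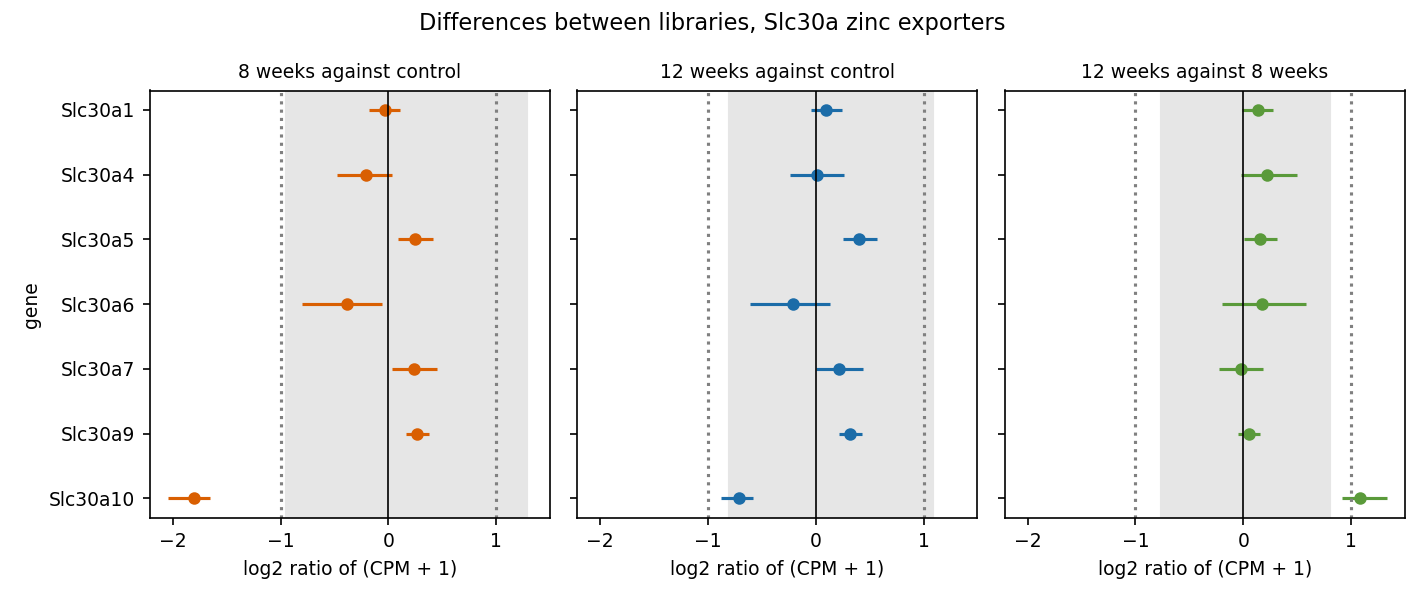
Log2 ratio of CPM + 1 for each gene in the 3 comparisons; bars are exact 95% intervals of the count ratio, dotted lines mark 2-fold, and the grey band in each panel holds the central 95% of 14585 genes in that comparison. Slc30a10 lies outside the band at 8 weeks against control (-1.80, band -0.95 to 1.28) and at 12 against 8 weeks (1.08, band -0.76 to 0.80), and inside it at 12 weeks against control (-0.72, band -0.81 to 1.09).

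The promoters of 3 members are shown because their genes frame the result: Slc30a10 is the member that differed, Slc30a1 is a textbook MTF1 target, and Slc30a5 had the highest 12-week ratio of the 7. The sequences are from RefSeq on build GRCm38.p6, read 5′ to 3′ on the gene's strand, and end just before the gene start of the deposited files. For Slc30a1 that start lies 14 bases before the RefSeq start, so 14 bases of its searched window are not printed. They come from chr1:185454598-185454847 (plus strand) for Slc30a10, chr1:191906531-191906766 (plus strand) for Slc30a1 and chr13:100833428-100833677 (minus strand) for Slc30a5. Capitals mark matches to the core of the metal response element, searched as TGCACNC and TGCGCNC on both strands, and in Slc30a5 also a palindrome described below.
Slc30a10: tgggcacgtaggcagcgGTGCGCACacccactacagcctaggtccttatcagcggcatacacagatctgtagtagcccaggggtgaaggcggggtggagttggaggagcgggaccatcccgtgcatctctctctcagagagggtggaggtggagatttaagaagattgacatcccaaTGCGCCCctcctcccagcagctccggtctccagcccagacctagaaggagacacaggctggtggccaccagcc
Slc30a1: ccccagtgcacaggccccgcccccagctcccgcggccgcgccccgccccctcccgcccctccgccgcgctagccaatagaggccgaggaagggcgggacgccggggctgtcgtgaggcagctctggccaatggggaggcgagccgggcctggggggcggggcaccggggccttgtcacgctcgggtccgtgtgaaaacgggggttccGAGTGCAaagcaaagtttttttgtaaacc
Slc30a5: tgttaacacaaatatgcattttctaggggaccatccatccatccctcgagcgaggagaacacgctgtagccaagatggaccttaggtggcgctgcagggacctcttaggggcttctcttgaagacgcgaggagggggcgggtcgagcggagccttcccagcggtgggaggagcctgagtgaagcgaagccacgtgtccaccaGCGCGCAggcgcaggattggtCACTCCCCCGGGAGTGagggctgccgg

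Of 32851 promoter windows of 250 bases, 21.4% held at least 1 match to either form of the core, 5.17% at least 2 and 1.26% at least 3. The Slc30a10 window held 3 matches. A pair of them overlaps on opposite strands, GTGCGCA and TGCGCAC, 233 to 226 bases before the start, and TGCGCCC lies 73 to 67 bases before it. Slc30a1 held 1 match, GAGTGCA, 43 to 37 bases before the RefSeq start (29 to 23 bases from the end of the printed stretch), and Slc30a5 held 1, GCGCGCA, 48 to 42 bases before its start. Slc30a4 held 2, and the windows of Slc30a6, Slc30a7 and Slc30a9 held 0. Of the metallothioneins, searched alike, Mt1 held 1 match and Mt2 held 3. Sites outside the 250 bases were not searched. The members' windows are rich in G and C, from 54.8% in Slc30a6 to 82.8% in Slc30a4, against a median of 52.4% over all windows. In Slc30a5 the palindrome CACTCCCCCGGGAGTG lies 27 to 12 bases before the start. It joins the half-sites CACTCC and GGAGTG, which have been described in the human gene as an element through which zinc lowers transcription. Within 50 bases of each other in this order, these half-sites were found in 0.152% of windows, and among the Slc30a windows in Slc30a5 alone. This search was chosen after the sequence was seen, and a match is a description of letters, not of binding.

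Slc30a1 carries zinc out of the cell and lies at chr1:191906767-191913247 on the plus strand (build mm10), with 2 exons. It had 760 control counts, 783 after 8 weeks and 795 after 12 weeks. The 3 libraries lay close together, with log2 ratios of -0.03 (interval -0.18 to 0.11) at 8 weeks, 0.10 (-0.05 to 0.25) at 12 weeks and 0.13 (-0.01 to 0.28) for 12 against 8 weeks. All 3 intervals hold 0, so the libraries did not differ beyond counting error, and the intervals reach up to a log2 ratio of 0.28. They set no limit on a difference between groups of animals, whose spread is unknown. At 8 weeks 6973 of 14585 genes had a lower ratio than Slc30a1, close to the middle of all genes.

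Slc30a10 lies at chr1:185454848-185468762 on the plus strand, with 4 exons and 1 annotated transcript, which encodes 470 amino acids. It had 993 control counts, 291 after 8 weeks and 585 after 12 weeks. The control was highest, the 8-week library lowest, and the 12-week library lay between them. At 8 weeks the level was 27.8% of the control, a log2 ratio of -1.80 (interval of the count ratio -2.04 to -1.66), and only 65 of 14585 genes had a lower ratio. At 12 weeks it was 60.4% of the control (-0.72, interval -0.88 to -0.58), short of 2-fold, and 529 genes had a lower ratio. The 12-week level was 2.17 times that at 8 weeks (1.08, interval 0.92 to 1.33), and 143 genes had a higher ratio. Both comparisons with the control share that 1 library, and the comparison of the treated libraries does not use it.

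Among the 7 genes, Slc30a10 made up 23.2% of the summed counts in the control (exact Clopper-Pearson 95% interval 22.0% to 24.5%), 7.09% at 8 weeks (6.32% to 7.92%) and 13.4% at 12 weeks (12.4% to 14.5%). The summed level of the family was 315, 287 and 329 CPM in the control, 8-week and 12-week libraries. Without Slc30a10 the sum was 242, 266 and 285 CPM in the same order. The 6 genes together were thus slightly higher in the treated libraries, while the sum with Slc30a10 was lowest at 8 weeks.

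The first exon of Slc30a10 overlaps an exon of Gm2061, a long noncoding RNA model on the opposite strand at chr1:185447116-185455568. They share 533 bases, of which 505 are coding in Slc30a10. Gm2061 had 146 control counts, 44.5 after 8 weeks and 83.5 after 12 weeks, the same order of libraries as Slc30a10. Its counts were 14.7%, 15.3% and 14.3% of those of Slc30a10. The Gm2061 counts cover all its 2761 bases. At the mean density of Slc30a10, the 533 shared bases alone would hold 90.7, 26.6 and 53.4 counts. The library kit named in the labels does not mark strand, so reads in these bases cannot be assigned to either gene. With the Gm2061 counts added to Slc30a10, a choice made after seeing the data, the log2 ratios were -1.80 and -0.72 against the control at 8 and 12 weeks, and 1.08 for 12 against 8 weeks.

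**Figure D3:**
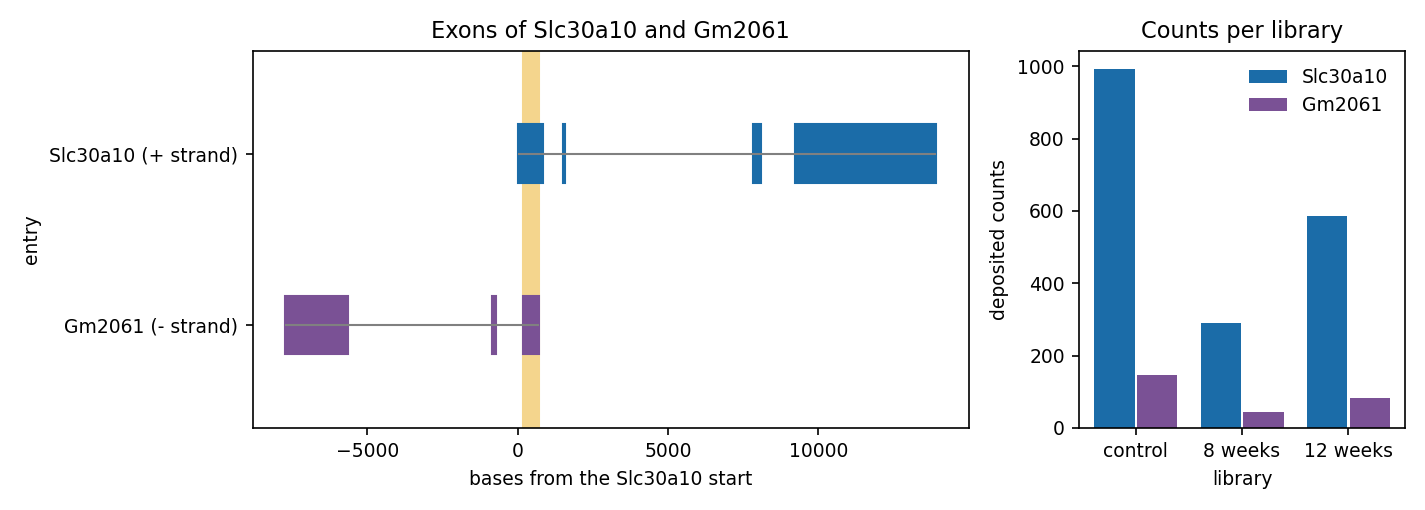
Left, exons (boxes) of Slc30a10 and of Gm2061 in bases from the Slc30a10 start, with the 533 shared bases shaded; right, deposited counts of both entries in each library. Both entries are highest in the control and lowest at 8 weeks.

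Markers of other cell types and of daily rhythm also differed between these libraries, and their part in the values of Slc30a10 was not tested. In whole liver, fewer cells of a type and less RNA per cell cannot be told apart. Of 10 hepatocyte markers, 0 were called in any comparison, and 8 lay above the control at 8 weeks and 8 at 12 weeks. Their summed level was 44206, 55345 and 54903 CPM in the control, 8-week and 12-week libraries. Albumin, Alb, alone had 21847, 31793 and 31169 CPM of it, so the sum mainly follows that gene. Of 8 bile duct markers 5 passed the filter, and 2 were called lower at 8 weeks, Sox9 (15.3, 4.68 and 13.4 CPM) and Krt23 (4.86, 1.74 and 4.23 CPM), with 0 called at 12 weeks. Their summed level was 65.4, 40.8 and 54.4 CPM. The defining duct keratin Krt19 had 4, 2 and 3 counts, close to 0. All 12 Kupffer cell markers were called higher at 8 weeks and 11 at 12 weeks, with summed levels of 92.1, 376 and 281 CPM. Skeletal muscle markers had 26, 2743 and 16 counts, so the 8-week library holds muscle transcripts. Of 14 core clock genes, 5 were called higher and 4 lower at 8 weeks, and 1 and 1 at 12 weeks. Endothelial, stellate cell and lymphocyte lists had 1, 1 and 0 called members at 8 weeks, of 9, 10 and 3 that passed the filter. Over all genes 6.25% were called at 8 weeks and 4.46% at 12 weeks.

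Among 9189 genes with a mean of at least 5 CPM, the 5 whose pair of log2 ratios against the control lay nearest to Slc30a10 were St5, Dtx4, Epha2, Asap2 and Hamp, by Euclidean distance over the 3 libraries. St5 had 444, 124 and 249.5 counts in the control, 8-week and 12-week libraries, at a distance of 0.05 on the log2 scale. Dtx4, at a distance of 0.06, had 177, 45 and 104.5 counts. Hamp, which encodes the iron hormone hepcidin, had 593, 185 and 395 CPM, at a distance of 0.18. In all, 8 genes lay within 0.25. A likeness over 3 single libraries is a description of these libraries.

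The transporters of the early secretory pathway did not all lie on the same side of the control. Slc30a5 and Slc30a6 form a heteromer, in which Slc30a6 is not thought to carry zinc itself, and Slc30a7 works as a homomer. Slc30a5 lies at chr13:100802649-100833427 on the minus strand. It had 560 control counts, 704 after 8 weeks and 726.5 after 12 weeks, and both treated libraries were above the control. Its log2 ratios were 0.25 (interval 0.09 to 0.41) at 8 weeks and 0.40 (0.25 to 0.57) at 12 weeks, or 1.19 and 1.33 times the control. Between the treated libraries the ratio was 0.15 (0.01 to 0.31).

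Slc30a6 lies at chr17:74395608-74424229 on the plus strand and had the fewest counts of the 7 genes. It had 139 control counts, 109 after 8 weeks and 115 after 12 weeks, so both treated libraries were below the control. The log2 ratio was -0.39 (interval -0.80 to -0.06) at 8 weeks and -0.22 (-0.61 to 0.13) at 12 weeks. The 12-week interval holds 0. Slc30a6 and its partner Slc30a5 thus stood on opposite sides of the control at 8 weeks, neither by 2-fold.

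Slc30a7 lies at chr3:115938973-116007406 on the minus strand. It had 337.5 control counts, 422 after 8 weeks and 384.5 after 12 weeks. Both treated libraries were above the control, with log2 ratios of 0.23 (interval 0.03 to 0.45) and 0.21 (0.00 to 0.43), and they did not differ beyond counting error from each other (-0.02, interval -0.23 to 0.18). A pair of processed pseudogene models on the opposite strand, Gm43106 and Gm6649, lie wholly inside its annotated exons. Gm43106 had 11.5, 9.5 and 15 counts in the control, 8-week and 12-week libraries, and Gm6649 had 39.5, 56.5 and 47. The counting intervals of Gm43106 were -1.71 to 0.99 at 8 weeks, -0.84 to 1.58 at 12 weeks and -0.55 to 2.01 for 12 against 8 weeks. Its libraries were thus not told apart.

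Slc30a4 moves zinc into vesicles and is known for supplying zinc to milk. It lies at chr2:122681233-122702663 on the minus strand. It had 264.75 control counts, 240.25 after 8 weeks and 261 after 12 weeks. The 8-week library was lowest, and the intervals of all 3 ratios hold 0: -0.21 (-0.48 to 0.04) at 8 weeks, 0.01 (-0.24 to 0.27) at 12 weeks and 0.22 (-0.02 to 0.49) for 12 against 8 weeks.

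Slc30a9, a zinc transporter of mitochondria that was also described as a nuclear coactivator, lies at chr5:67306955-67358443 on the plus strand. It had the most counts of the 7, with 1222.5 in the control, 1556 after 8 and 1489 after 12 weeks. Both treated libraries were above the control, at log2 ratios of 0.27 (interval 0.16 to 0.38) and 0.32 (0.21 to 0.43), and the treated libraries did not differ beyond counting error (0.05, interval -0.05 to 0.15). Its ratio at 8 weeks was exceeded by 3544 of 14585 genes, so a difference of this size was common.

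Levels of different genes were compared per kilobase of length. In the control, over all annotated exon bases, Slc30a5 (13.0 CPM per kilobase) and Slc30a10 (12.5) were highest, with overlapping counting intervals. Slc30a1 (10.7) and Slc30a9 (7.28) came next, each apart from its neighbours. Slc30a6 (4.72) and Slc30a4 (3.56) had overlapping intervals, and Slc30a7 (2.24) was lowest. At 8 weeks Slc30a10 stood at 3.48 CPM per kilobase, rank 5 of the 7, and its interval overlapped those of Slc30a6 (3.50) and Slc30a4 (3.06). At 12 weeks it had rank 4 at 7.57 CPM per kilobase, apart from its neighbours Slc30a9 (9.09) above and Slc30a6 below.

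The order depends on the length used. Slc30a9 has 12374 annotated exon bases but a principal coding transcript of 5711, and per kilobase of the principal transcript, a choice made after seeing the data, it was highest in all 3 libraries (15.8, 19.0 and 19.7 CPM per kilobase). Slc30a10 then had ranks 3, 5 and 4 in the control, 8-week and 12-week libraries.

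**Figure D4:**
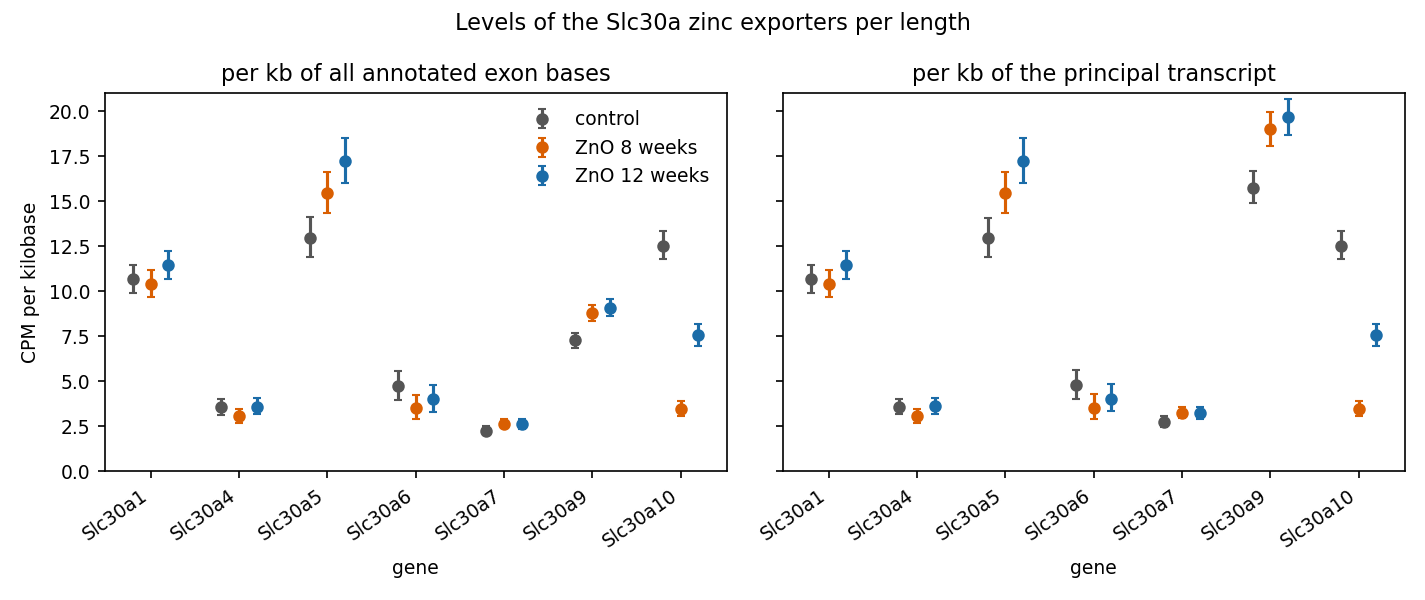
CPM per kilobase of the 7 genes in the 3 libraries, over all annotated exon bases (left) and over the principal transcript (right); bars are exact Poisson 95% intervals for counting error. Slc30a9 goes from 7.28 to 15.8 CPM per kilobase in the control when the shorter length is used, and Slc30a10 has the same length in both.

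The other 3 Slc30a genes had low counts, and only Slc30a3 passed the filter of 1 CPM. The floor of 3 counts is 0.220, 0.210 and 0.226 CPM in the control, 8-week and 12-week libraries. Slc30a2, an exporter into vesicles, had 0, 5 and 4 counts, and Slc30a8, the zinc transporter of insulin granules in pancreatic beta cells, had 0, 1 and 1. Slc30a3, which loads synaptic vesicles, had 20.33, 7 and 26 counts. Its log2 ratios were -0.73 (interval -3.08 to -0.29) at 8 weeks, 0.26 (-0.48 to 1.33) at 12 weeks and 0.99 (0.76 to 3.45) for 12 against 8 weeks. The 8-week library was lowest, and the interval of the 12-week library against the control holds 0.

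Genes that work beside the exporters gave values in both directions. Of the 4 metallothionein genes, Mt1 and Mt2 were called higher at both times and Mt3 and Mt4 had 0 counts. Mt1 had log2 ratios of 1.26 (interval 1.11 to 1.49) at 8 weeks and 3.62 (3.51 to 3.84) at 12 weeks, and Mt2, whose place is shared with a model on the opposite strand, 1.89 and 4.68. Mtf1 itself had 21.6, 25.0 and 29.4 CPM. Of 9 reported MTF1 targets in the files, Slc30a1 among them, 2 were called higher at 8 weeks and 3 at 12 weeks. At either time 0 were called lower. Over all genes 4.15% were called higher at 8 weeks and 3.11% at 12 weeks. The gene added at 12 weeks was Csrp1, a LIM domain protein (2.87, 6.49 and 8.91 CPM). The targets went both ways: 5 of the 9 lay above the control at 8 weeks and 6 at 12 weeks. Gclc was below it at both times (471, 258 and 250 CPM, log2 ratios -0.86 and -0.91). Mt1 and Mt2 were thus called higher in the same libraries in which Slc30a1 was not.

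Of 14 Slc39a genes, which encode the opposing importers, 12 passed the filter. Against the control 0 were called in either direction, where 6.25% of all genes were at 8 weeks and 4.46% at 12 weeks. Their median log2 ratio was 0.03 at 8 weeks and 0.19 at 12 weeks. Slc39a14, an importer of manganese, iron and zinc, was the most abundant, with 143, 224 and 285 CPM, and its 12-week log2 ratio of 0.99 (interval 0.91 to 1.07) fell just short of 2-fold. Slc39a1, a zinc importer of the plasma membrane, had 56.9, 53.9 and 61.5 CPM, and Slc39a8, which also carries manganese, had 43.5, 33.5 and 38.9 CPM. Slc39a14 and Slc30a10 act on manganese in opposite directions, and the pair was compared after their values were seen. Per kilobase of all annotated exon bases, Slc39a14 had 1.08 times the level of Slc30a10 in the control (exact interval 1.00 to 1.17). It had 6.11 times that level at 8 weeks (5.41 to 6.91) and 3.57 times at 12 weeks (3.27 to 3.90). The intervals cover counting error only, and another choice of length would scale all 3 ratios alike. The ratio was highest at 8 weeks, where Slc30a10, its denominator, was lowest, so this order in part restates the values of Slc30a10.

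Of 10 other genes of manganese handling, Slc39a14 among them, 0 were called in any comparison, with medians of 0.02 and 0.04 at 8 and 12 weeks. The most abundant were transferrin, Trf (log2 ratios 0.42 and 0.46), and arginase, Arg1 (-0.15 and 0.02), a manganese enzyme. Of the 10, 5 lay above the control at 8 weeks and 7 at 12 weeks. Slc11a2 (-0.61 and -0.43) and Tfrc (-0.18 and -0.64) were below it at both times by more than counting error. Over all 14585 genes 6.25%, 4.46% and 2.51% were called in the 3 comparisons. In lists as short as those of this paragraph, 0 or 1 is near that share. Of 7 genes of copper handling 0 were called, with ceruloplasmin, Cp, at 0.00 and 0.07 and the copper importer Slc31a1 at 0.46 and 0.26. Of 19 zinc enzymes of the secretory pathway 14 passed the filter. At 8 weeks 0 were called, and 1 was called higher at 12 weeks, Enpp2 (autotaxin, 24.2, 43.6 and 50.1 CPM). Alkaline phosphatase Alpl, a client of Slc30a5 and Slc30a7 named after its values were seen, had 25.5, 18.0 and 16.7 CPM.

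**Figure D5:**
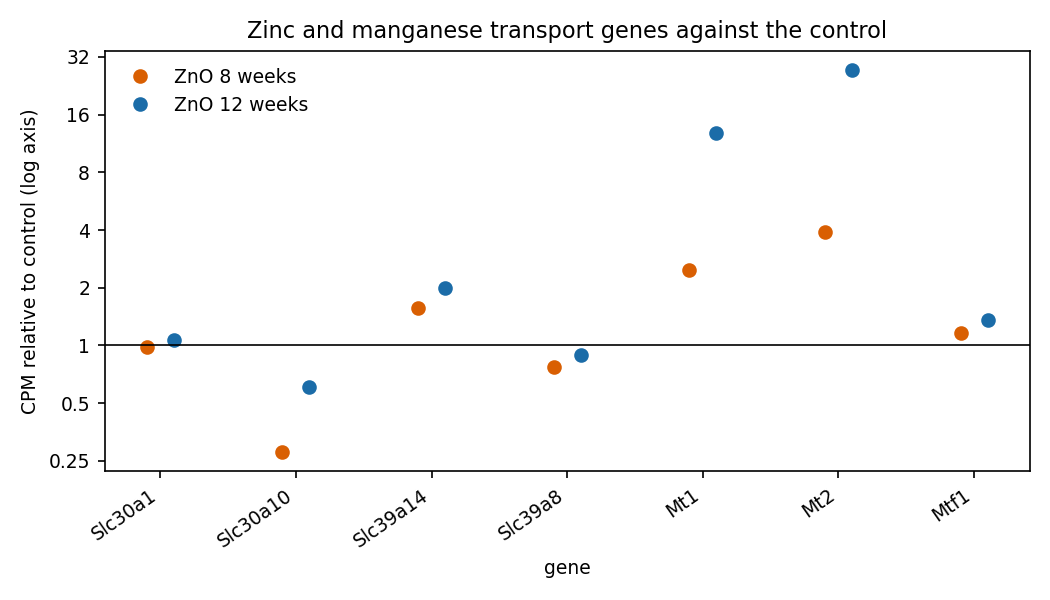
CPM of zinc and manganese transport genes relative to the control (log axis) at 8 and 12 weeks; each point is 1 library against the same control library. Slc30a1 stays near 1 (56.0, 54.6 and 60.0 CPM), Slc30a10 lies below 1 and Mt1 and Mt2 lie above it.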

How the data were processed

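The authors deposited 1 table per library with estimated counts per gene, exon positions and lengths, with no scaling applied (judged from the file headers and values). Of the values above 0, 70.2% to 71.5% were whole within 0.005. TopHat2 2.1.0, Cufflinks and 2 builds, mm9 and mm10, appear in the submitters' processing notes, which give no roles. The program that counted reads is not given in the sources used here. Spans of 5 of the 7 genes equal those of GENCODE M21 (GRCm38), and the other 2 differ by at most 8 bases at 1 end, so positions are those of mm10.

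Counts were rounded, summing to 13614979 (control), 14258770 (8 weeks) and 13263211 (12 weeks), and scaled by TMM in edgeR 4.0.16 (R 4.3.3) over all entries. Log2 ratios use CPM + 1. Genes were kept at 1 CPM in at least 1 library. Intervals are exact 95% intervals, calculated without the added CPM, and cover counting error only, since amplified reads are not independent molecules. Calls and intervals were tried on simulated Poisson counts, which hold only the counting error that the intervals assume and no spread between animals. Simulated 3-fold rises were called in 90% (8 weeks) and 94% (12 weeks) of genes, and 3-fold falls in 76% and 78%. The pseudocount, filter, fold cutoff, rounding and scaling (total count, upper quartile, DESeq2 1.42.0 size factors) were each varied.

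The members and lists were chosen with earlier results of these data known. Named genes were all Slc30a genes, entries overlapping them, up to 4 called genes of each metal list or else its 2 most abundant by mean CPM, and the 5 genes nearest to the member with the widest range. Mtf1, Gclc, Slc39a8, Slc11a2, Tfrc, Alb, Sox9, Krt23, Krt19 and Alpl were named outside this rule, after their values were seen. All 3 libraries were used. Scripts ran in Python 3.11.15 with numpy, pandas, scipy and matplotlib.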

Additional observations from a re-analysis of the deposited data

How the results depend on the processing

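Of 147 log2 ratios of the 7 genes recomputed under 7 alternatives (pseudocount, scaling, rounding and, chosen after seeing the data, the counts of overlapping entries added), 146 stayed within the counting interval of the reported value, and 0 changed sign. Much of this agreement was set in advance. Scaling factors lay between 0.997 and 1.005 by every method, so the scaling and rounding alternatives could move a ratio only slightly. A further 3 alternatives are not counted. The 2 filters leave a gene's ratio as it is. The skeletal muscle markers, left out of the totals after seeing the data, are 2743 of 14258770 counts at 8 weeks. With 5 CPM added in place of 1, Slc30a10 at 8 weeks was -1.63 against the control, still past 2-fold, and between the treated libraries it was 0.96, so that 0 members were called there. Over all alternatives Slc30a10 ranged from -1.84 to -1.63 at 8 weeks, from -0.73 to -0.67 at 12 weeks and from 0.96 to 1.11 between the treated libraries. At a 1.5-fold threshold 1 member, Slc30a10, was called at 12 weeks against the control, where 15.5% of all genes were called (18.6% at 8 weeks and 10.1% between treated libraries). The share of all genes called in the 3 comparisons was 10.2%, 7.95% and 4.95% with 0.25 CPM added, 2.94%, 1.78% and 1.10% with 5 CPM, 4.94%, 3.69% and 1.76% with 1 CPM required in all 3 libraries, and 1.84%, 1.31% and 0.740% with no filter. By CPM without length, 3 of the 7 genes kept their rank in each library; per kilobase of the principal transcript, 3, 2 and 4 did. These shifts follow from the lengths used. No paired analysis was possible because each group has 1 library. Depth limits Slc30a2, Slc30a3 and Slc30a8 most.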

Other observations

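Slc30a1 and Slc30a4 also share exon bases with entries on the opposite strand. 1700034H15Rik shares 468 bases with the first exon of Slc30a1, all of them coding there. Over all its 6099 bases it had 62.5, 72 and 75 counts in the control, 8-week and 12-week libraries. At the mean density of Slc30a1, the 468 shared bases alone would hold 67.8, 69.9 and 70.9. 4930417H01Rik shares 130 bases with Slc30a4 and had 6, 13 and 13 counts over all its 1887 bases. At the mean density of Slc30a4, the shared bases alone would hold 6.28, 5.70 and 6.19. These values do not cover the same bases, so they cannot be set against each other directly. The counting intervals of its log2 ratios to the control, -0.46 to 2.72 at 8 weeks and -0.35 to 2.83 at 12 weeks, include no change. How reads in shared bases were assigned was not tested.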
